A study of Mus musculus with 4 samples.

Results

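Transcripts of the leukemia inhibitory factor (LIF) receptor system and of the JAK kinases were compared between SOCS3-null and wildtype mouse embryonic stem (ES) cells. The genes were Lif, the receptor chains Lifr, Il6st, Osmr, Il6ra and Cntfr, and the kinases Jak1, Jak2, Jak3 and Tyk2. Every probe set annotated with 1 of these 10 symbols and no other gene was taken, which gave 24 probe sets of the 45101 on the array. Total RNA was measured on 4 arrays, 2 from cells labelled SOCS3 null and 2 from cells labelled wildtype. The labels give no culture condition, LIF dose, clone or passage, nor whether replicates were independent cultures, so the p-values reflect no more than the variation between arrays, which may be technical.

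LIF binds the chain encoded by Lifr, which pairs with gp130, the shared signalling chain encoded by Il6st. JAK kinases held on the inner parts of these chains then phosphorylate the receptor and STAT3, the route by which LIF holds mouse ES cells undifferentiated. SOCS3 is induced by STAT3, binds gp130 and the kinases JAK1, JAK2 and TYK2, and limits the signal. Osmr encodes the chain that pairs with gp130 for oncostatin M, while Il6ra and Cntfr encode chains that bind interleukin 6 and ciliary neurotrophic factor and pass the signal on through gp130.

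All 3 probe sets of Lifr and both of Jak2 rose in SOCS3-null cells, with log2 changes of 0.83 to 1.42, and the brightest probe set of Jak1 rose by 0.77. Changes are SOCS3-null minus wildtype on the log2(intensity + 16) scale, which understates those of dim probe sets. None of the 4 probe sets of Il6st passed the test in either direction, nor did Osmr, Il6ra, Cntfr, Lif, Jak3 or Tyk2. Of the 24 probe sets, 22 were bright enough to be tested (mean log2 value over all arrays at or above the 40th percentile). Of these, 6 were higher at a limma adjusted p under 0.05, 0 were lower and 16 did not pass. Among all 27022 probe sets tested, 8.55% were called higher and 7.3% lower. The probe sets of a gene share its transcript, and the 6 calls belong to 3 genes. With the brightest probe set standing for each gene, 3 of 10 genes were called higher, against 13.1% of 12732 genes. None of these probe sets reached the filter through the SOCS3-null arrays alone, since 0 of the 22 had a wildtype mean under the floor (an intensity of 10.4). With any 1 of the 4 arrays left out limma called 0 probe sets on the whole array, and 6 to 11 of the 22 then had an unadjusted p under 0.05, against 12 with all arrays.

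**Figure D1:**
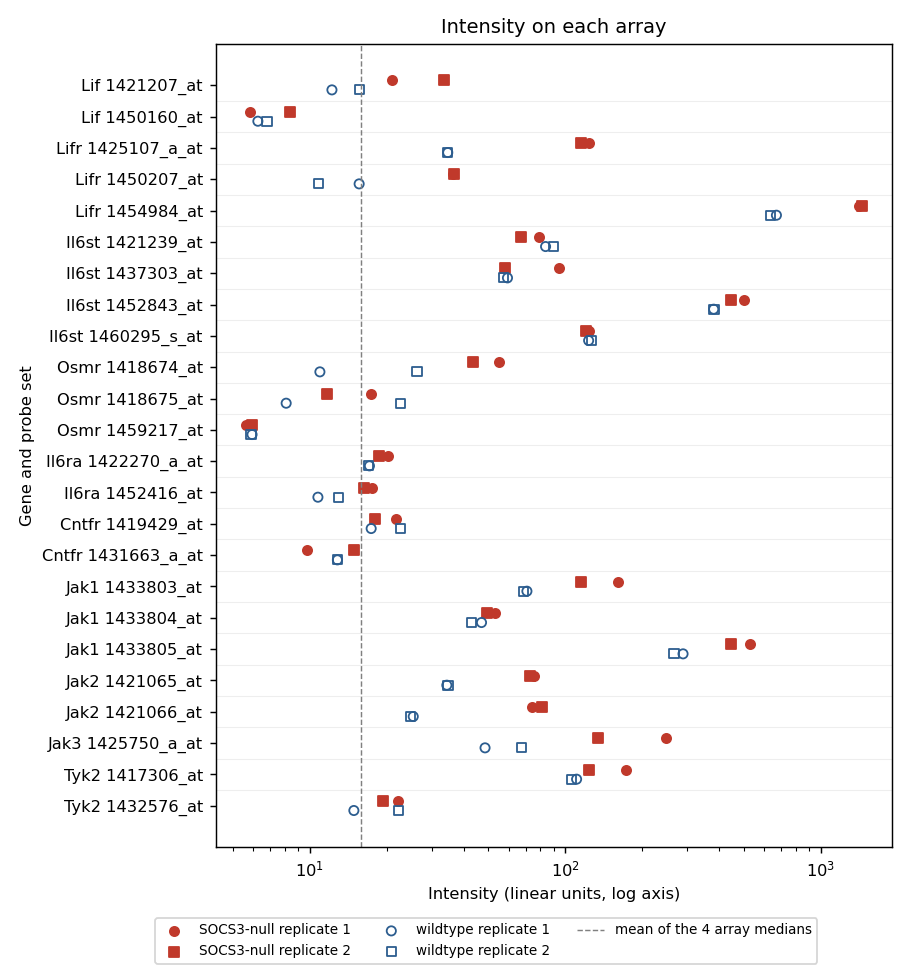
Intensity of the 24 probe sets on each array (log axis). Filled symbols are SOCS3-null arrays, open symbols are wildtype arrays, and the dashed line is the mean of the array medians. The SOCS3-null symbols of Lifr and Jak2 lie to the right of the wildtype symbols, while those of Il6st and Cntfr lie close together.

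The label of the null cells was checked on Socs3 first. Its brightest probe set was at 19.3 and 12.9 on the SOCS3-null arrays, against 3024 and 1884 on the wildtype arrays, and all 3 of its probe sets were called lower (log2 changes of -6.23, -4.87 and -4.15). Which stretch of Socs3 was deleted is not given. The ES cell markers were present in both groups. Pou5f1, the central pluripotency factor, was at 11567 and 10524 on SOCS3-null arrays and at 10524 and 11675 on wildtype arrays, and 0 of 14 tested ES cell marker probe sets were called. On 13 of these 14 both SOCS3-null arrays nevertheless lay below both wildtype arrays, a pattern held by 34.8% of all probe sets tested, and the median change of the list was -0.43. Zfp42, a marker of undifferentiated cells, was at 3502 and 1509 on SOCS3-null arrays and 7657 and 7324 on wildtype arrays, a difference of -1.70, and the pluripotency factor Sox2 differed by -1.01. In the list of primitive and extraembryonic endoderm, 23 of 24 tested probe sets were called higher in SOCS3-null cells, against 8.55% of all probe sets tested. Several were tested only through their SOCS3-null values, which favoured a call. On wildtype arrays Gata6 1425463_at was at 4.97 and 5.54 and Sox17 1421657_a_at at 5.90 and 7.38, under the filter floor. The summed intensity of the 12 genes in the list was 49012 and 52330 on SOCS3-null arrays and 1941 and 2082 on wildtype arrays, and none was at 0. Between the groups every rise described here went with that of the endoderm markers, as any rise would with only 2 groups. Within the SOCS3-null arrays the endoderm sum was higher on replicate 2, as were Lifr 1454984_at and 1450207_at and Jak2 1421066_at. The other called probe sets, Lifr 1425107_a_at, Jak2 1421065_at and Jak1 1433805_at, were higher on replicate 1. The genes in the sum did not move together. Its brightest, Sparc 1448392_at, was at 15117 on replicate 1 and 17921 on replicate 2. Lama1 (12157 and 11686), Amn, Gata6 and Pdgfra were higher on replicate 1 at the probe set summed, and the remaining genes on replicate 2. Whether endoderm cells had a part in these rises was not tested, and the labels do not say whether the cells were a mixture. In total RNA, more cells of a type and more RNA per cell cannot be told apart. Of fibroblast and feeder cell markers, 0 of 12 tested probe sets were called, and their summed intensity overlapped between the groups (2614 and 1613 on SOCS3-null, 1336 and 2195 on wildtype arrays). Among blood and endothelial markers Cd68 and Cdh5 were called higher, 2 of 8 tested probe sets, against 8.55% of all probe sets tested. Cdh5 1433956_at was tested only through its SOCS3-null values (27.6 on each array), since its wildtype values of 6.61 and 5.17 lay under the filter floor. The other Cdh5 probe set, 1422047_at, was too dim to be tested. Both tested mesoderm probe sets, of Eomes, were not called, and of 5 neuroectoderm probe sets that of Tubb3 was called lower.

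Of Lif and the receptor chains, Lifr alone had called probe sets. It encodes the chain that binds LIF directly. Its brightest probe set, 1454984_at, was at 1410 and 1449 on the SOCS3-null arrays, against 672 and 639 on the wildtype arrays. The groups lay far apart, with means of 1429 ± 27.6 in SOCS3-null and 655 ± 23.4 in wildtype cells (SD, n = 2 arrays each). This is a log2 change of 1.11 (SE 0.07, limma adjusted p = 0.0111). Probe set 1425107_a_at read 124 and 116 on SOCS3-null arrays and 34.7 on each wildtype array, a change of 1.42 (SE 0.07, adjusted p = 0.009). The wildtype values of that probe set were identical, as were those of 3383 probe sets on the array, so its own wildtype spread is 0 and its test leans on the spread of other probe sets. The dimmest, 1450207_at, was at 36.3 and 36.8 on SOCS3-null arrays and at 15.6 and 10.8 on wildtype arrays. The wildtype values lie just below the median intensity of their arrays. The probe set changed by 0.85 (SE 0.11, adjusted p = 0.0256). On every Lifr probe set both SOCS3-null arrays lay above both wildtype arrays. Testing all probe sets with no filter on dim ones ended the call of 1450207_at (adjusted p = 0.0725), as did a block on the replicate number (adjusted p = 0.0563). The pseudocount set the size of the 2 dimmer changes, which were 1.76 and 1.42 with a pseudocount of 1 and 0.90 and 0.38 with 64.

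RefSeq windows of the 250 bases before the transcription start of the called genes are shown because these genes rose together, and because Lifr has 2 annotated starts of different base composition. Build GRCm38.p6 was used, and capitals mark CG dinucleotides.
Lifr, upstream start, chr15:7129322-7129571, plus strand: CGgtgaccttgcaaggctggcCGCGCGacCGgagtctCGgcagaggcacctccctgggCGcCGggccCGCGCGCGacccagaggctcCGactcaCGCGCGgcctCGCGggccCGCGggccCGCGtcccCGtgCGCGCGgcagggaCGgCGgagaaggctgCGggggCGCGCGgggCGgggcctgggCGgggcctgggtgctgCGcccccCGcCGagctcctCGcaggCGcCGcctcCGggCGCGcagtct
Lifr, downstream start, chr15:7140292-7140541, plus strand: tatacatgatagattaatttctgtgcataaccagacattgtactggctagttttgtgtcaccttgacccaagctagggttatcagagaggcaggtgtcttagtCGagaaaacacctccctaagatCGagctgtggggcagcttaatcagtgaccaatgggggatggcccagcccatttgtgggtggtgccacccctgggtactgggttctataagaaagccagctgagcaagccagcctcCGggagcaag
Jak1, chr4:101265224-101265473, minus strand: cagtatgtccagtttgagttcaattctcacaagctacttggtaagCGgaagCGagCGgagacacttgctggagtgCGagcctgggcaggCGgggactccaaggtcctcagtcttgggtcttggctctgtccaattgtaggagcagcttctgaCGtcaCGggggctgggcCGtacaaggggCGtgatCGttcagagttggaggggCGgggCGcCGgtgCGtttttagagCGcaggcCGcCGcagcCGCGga
Jak2, chr19:29251553-29251802, plus strand: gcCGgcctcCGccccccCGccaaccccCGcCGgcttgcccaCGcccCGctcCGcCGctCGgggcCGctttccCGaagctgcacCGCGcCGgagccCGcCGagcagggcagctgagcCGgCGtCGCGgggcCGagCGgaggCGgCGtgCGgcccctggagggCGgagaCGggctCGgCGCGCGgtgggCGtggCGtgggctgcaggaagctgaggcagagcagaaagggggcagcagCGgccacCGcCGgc
The upstream Lifr window held 43 CG dinucleotides and 82.4% G and C, whereas the downstream Lifr window held 3 and 50.8%. The Jak1 and Jak2 windows held 19 and 37, against a median of 6 over all 32851 windows in the table. High counts were not particular to the called genes. The windows of Il6st held 26, of Tyk2 19, of Osmr and Il6ra 18 each, and of Cntfr 3 to 37. Those of Lif and Jak3 held 6 and 8. The annotation used here does not say which start each Lifr probe set reads. The STAT motif TTCNNNGAA, which reads the same on both strands, was searched in these windows. It was found in 0 of the 16 windows of the 10 genes and in 7.02% of all windows of that length. This says only that those letters are not in these windows.

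Il6st, the chain shared by the whole cytokine family, gave no call on any of 4 probe sets. The brightest, 1452843_at, was at 502 and 448 on SOCS3-null arrays, against 381 and 382 on wildtype arrays. Both SOCS3-null arrays lay above both wildtype arrays, and the change was 0.30 (SE 0.09, 95% interval 0.05 to 0.56), with a limma adjusted p of 0.111. Probe set 1421239_at lay the other way, with 78.6 and 67.0 on SOCS3-null arrays and 83.8 and 90.0 on wildtype arrays. Its change was -0.21, with a 95% interval that spans 0 (-0.51 to 0.08). The sign of the Il6st estimate thus differs between probe sets, but a fall is not established. Probe set 1460295_s_at, designed from the same sequence record as 1421239_at, differed by -0.04 (95% interval -0.23 to 0.16). For 1437303_at the SOCS3-null values were 94.8 and 58.3 and the wildtype values 59.4 and 57.4, and the groups overlapped. Its change was 0.29, and -0.00094 when SOCS3-null replicate 1 was left out.

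Osmr is the next protein-coding gene to Lifr on mouse chromosome 15 in the RefSeq table. Its probe set 1418674_at was at 55.2 and 43.5 on SOCS3-null arrays, against 10.9 and 26.3 on wildtype arrays. The groups did not overlap, but the wildtype arrays differed from each other by more than their lower value. The change was 0.95 (SE 0.27, 95% interval 0.19 to 1.71), with a limma adjusted p of 0.1. Within each genotype the array with the higher Osmr value was also the array with the higher summed fibroblast markers. Whether fibroblasts were present or had a part was not tested. Probe set 1418675_at overlapped, with 17.4 and 11.7 on SOCS3-null arrays and 8.08 and 22.6 on wildtype arrays. The remaining probe set, 1459217_at, lay between 5.64 and 5.94 on all 4 arrays and was not tested.

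The ligand-binding chains Il6ra and Cntfr were dim throughout. The brighter Il6ra probe set, 1422270_a_at, was at 20.3 and 18.7 on SOCS3-null arrays and 17.1 and 17.0 on wildtype arrays, a difference of 0.10 (95% interval -0.10 to 0.30). The other, 1452416_at, was at 17.5 and 16.4 on SOCS3-null arrays and 10.8 and 12.9 on wildtype arrays, a difference of 0.24 (95% interval 0.01 to 0.47, limma adjusted p = 0.136). Each Il6ra probe set thus lay slightly higher on both SOCS3-null arrays, close to the array medians. Both Cntfr probe sets overlapped between the groups, within 9.76 to 22.7 on all arrays. Their differences were -0.00 (95% interval -0.34 to 0.33) for 1419429_at and -0.03 (95% interval -0.37 to 0.30) for 1431663_a_at. Lif itself, the ligand, was dim as well. Its probe set 1421207_at was at 21.1 and 33.5 on SOCS3-null arrays and 12.2 and 15.7 on wildtype arrays, a difference of 0.52 (SE 0.18, 95% interval 0.01 to 1.03, limma adjusted p = 0.145). The second Lif probe set, 1450160_at, lay between 5.84 and 8.38 on all arrays and was not tested.

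**Figure D2:**
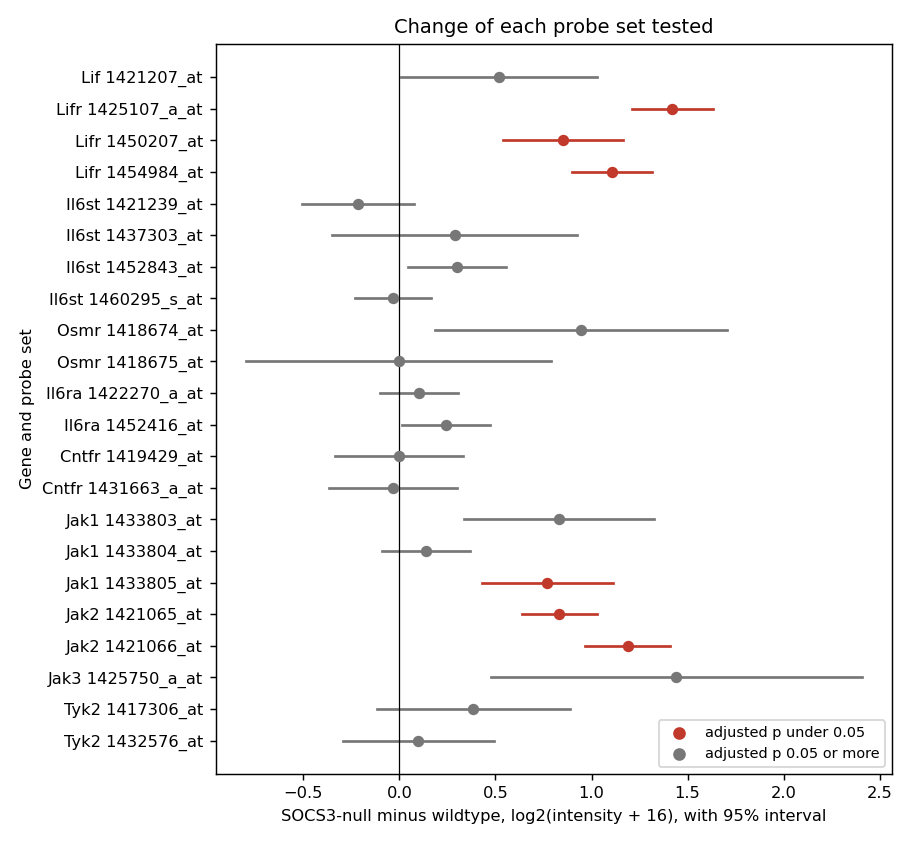
SOCS3-null minus wildtype on the log2(intensity + 16) scale for the 22 probe sets tested, with the 95% interval from limma's moderated spread. Red marks the 6 probe sets with an adjusted p under 0.05, all to the right of 0 and belonging to Lifr, Jak1 and Jak2. The interval of Jak3 is the widest, from 0.48 to 2.41.

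The 4 JAK kinases had 8 probe sets, all of them tested, of which 3 were called higher and 0 lower. On 7 of the 8 both SOCS3-null arrays lay above both wildtype arrays, a pattern seen on 27.2% of all probe sets tested. The median change was 0.80 over the JAK probe sets and 0.27 over the 14 tested probe sets of Lif and the receptor chains. It was 0.34 over all 22 and -0.02 over all probe sets tested.

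Jak2, a kinase of gp130 and of the growth hormone and erythropoietin receptors, was called on both of its probe sets. Probe set 1421066_at was at 74.3 and 81.1 on SOCS3-null arrays, against 25.4 and 24.8 on wildtype arrays. Probe set 1421065_at was at 75.2 and 73.0 on SOCS3-null arrays, against 34.4 and 34.8 on wildtype arrays. The gap between the groups was many times the gap within them on both probe sets. Their log2 changes were 1.19 (SE 0.08, limma adjusted p = 0.0109) and 0.83 (SE 0.07, limma adjusted p = 0.0134). With a pseudocount of 1 they were 1.59 and 1.08, and with 64 they were 0.67 and 0.49.

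Jak1, the kinase that gp130 signalling depends on most, was read by 3 probe sets designed from the same sequence record. The brightest, 1433805_at, was at 530 and 444 on SOCS3-null arrays, against 289 and 267 on wildtype arrays, a rise of 0.77 (SE 0.12, limma adjusted p = 0.0347). Probe set 1433803_at was at 161 and 115 on SOCS3-null arrays and 70.8 and 68.4 on wildtype arrays. Its difference of 0.83 was as large, but the SOCS3-null arrays were farther apart and the adjusted p was 0.0573. Probe set 1433804_at differed least, with 52.9 and 49.3 on SOCS3-null arrays and 47.0 and 43.0 on wildtype arrays, a difference of 0.14 (95% interval -0.09 to 0.37). Dropping the filter ended the call of 1433805_at (adjusted p = 0.0966), as did the replicate block (adjusted p = 0.0542). With the filter at the 60th percentile 1433803_at passed as well (adjusted p = 0.0227).

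Jak3, which works with the common gamma chain of the lymphoid interleukin receptors, differed by more than any other of the 22 probe sets on this scale and did not pass. With a pseudocount of 1 it came behind Lifr 1425107_a_at (1.66 against 1.76). Probe set 1425750_a_at was at 249 and 134 on SOCS3-null arrays, against 48.5 and 67.4 on wildtype arrays. The groups did not overlap, yet the SOCS3-null arrays differed by almost as much as the group means. The difference was 1.44 (SE 0.34, 95% interval 0.48 to 2.41), with a limma adjusted p of 0.071, and of 0.0212 with the filter at the 60th percentile. Probe sets 1423021_s_at and 1427092_at are annotated to both Jak3 and its neighbour Insl3 and are not counted among the 24. The first was at 58.2 and 40.4 on SOCS3-null arrays and 40.1 and 31.0 on wildtype arrays, a difference of 0.33 (limma adjusted p = 0.312). The other lay between 5.56 and 5.75 on all arrays and was not tested.

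Tyk2, a kinase of the interferon and interleukin 12 receptors, was at 173 and 123 on SOCS3-null arrays and 111 and 106 on wildtype arrays with probe set 1417306_at. Its SOCS3-null values lay above those of wildtype without reaching the threshold (0.38, 95% interval -0.12 to 0.89, limma adjusted p = 0.234). The difference was 0.17 without SOCS3-null replicate 1 and 0.60 without SOCS3-null replicate 2. The dim 1432576_at overlapped between the groups, with 22.2 and 19.4 on SOCS3-null and 14.9 and 22.2 on wildtype arrays. On SOCS3-null replicate 1 the values of Jak1, Jak3 and Tyk2 were above those on replicate 2, as was the summed intensity of the fibroblast markers. On the wildtype arrays the fibroblast sum was higher on replicate 2, as were Jak3 and 1432576_at of Tyk2. Jak1 and 1417306_at of Tyk2 were higher on wildtype replicate 1. What moved these values was not tested.

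**Figure D3:**
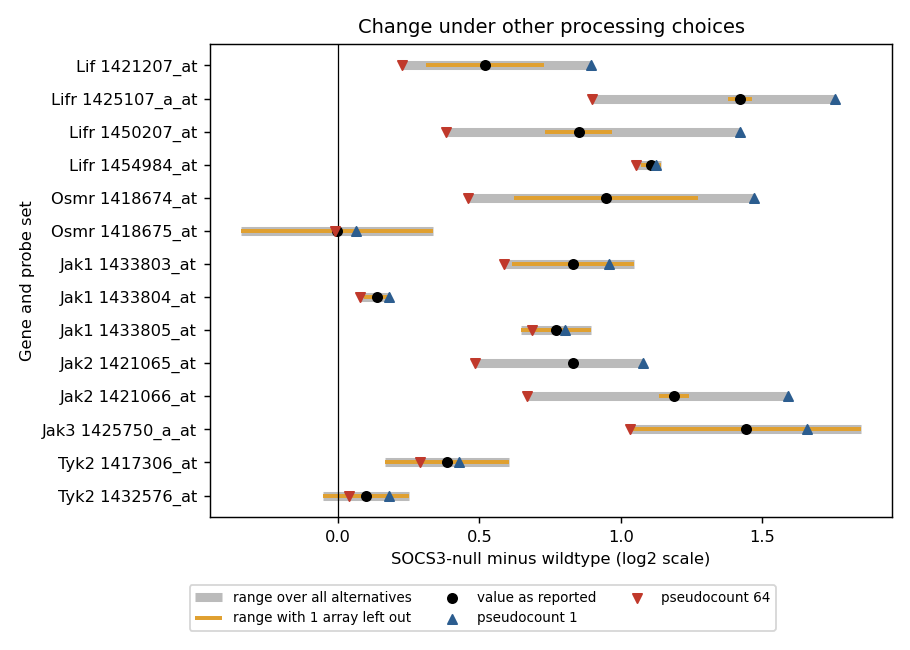
Log2 change of each probe set of Lif, Lifr, Osmr and the JAK kinases as reported (black), with pseudocounts of 1 and 64 (triangles), with 1 array left out (orange) and over all alternatives (grey). Every value of Lifr, Jak1, Jak2 and Jak3 lies above 0, whereas 1418675_at of Osmr and 1432576_at of Tyk2 cross it.

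The rest of the pathway was read from 3 lists of genes. The first held other ligands and receptor chains of the gp130 family. Of its 13 genes, 6 were tested, with 1 probe set each, and 0 passed in limma, where 0 of the 6 also had an unadjusted p under 0.05. The smallest p values were those of Il11 (22.6 and 20.3 on SOCS3-null, 24.3 and 27.6 on wildtype arrays) and Il6 (57.6 and 27.1 on SOCS3-null, 12.6 and 27.3 on wildtype arrays). The median change was 0.02.

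The second list held other receptors that signal through JAK kinases. Of 25 tested probe sets from 15 genes, 5 were called higher and 0 lower, each from a different gene. Over all probe sets tested, 8.55% were called higher and 7.3% lower. Crlf2, a chain of the receptor for thymic stromal lymphopoietin, was at 531 and 654 on SOCS3-null arrays, against 192 and 156 on wildtype arrays, a rise of 1.68 (SE 0.16, limma adjusted p = 0.0163). The interferon receptor chain Ifnar2 rose by 1.34 on 1451462_a_at but differed by 0.20 on the dim 1427691_a_at, which was not called. Il10rb, shared by receptors of the interleukin 10 family, rose by 1.24, and Csf2ra, a receptor chain for the growth factor GM-CSF, by 0.86 on 1420703_at, whereas its dim 1420704_at differed by 0.06 and was not called. Il13ra1, a receptor chain for interleukin 13, rose by 0.90 on 1427165_at, while the 3 others tested differed by 0.38 to 0.43 and were not called. That called probe set was tested only through its SOCS3-null values, since its wildtype values of 8.06 and 9.99 lay under the filter floor. The median of the list was 0.20.

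The third list held signal transducers and inhibitors that act at the receptor, among them the targeted Socs3. Of 81 tested probe sets from 31 genes, 5 were called higher and 9 lower, the 3 of Socs3 among them, with a median of 0.03. These shares are near the 8.55% called higher and 7.3% called lower over the whole array. The 5 higher probe sets were those of the STAT factors Stat5a (0.93), Stat5b (0.48) and Stat6 (0.46), of Socs5 (0.82), a relative of Socs3, and of Shc1 (1.02), an adaptor toward Ras. Each of these genes also had a tested probe set that was not called, with differences of 0.17 to 0.72. The lower probe sets were the 3 of Socs3, 3 of Socs2 (-1.53, -1.22 and -0.87) and those of Stat4 (-2.27), of the phosphatase gene Ptpn6 (-0.87) and of Sos1 (-0.72), which activates Ras. Other tested probe sets of Socs2 (-0.69 and -0.27), Ptpn6 (-0.46) and Sos1 (-0.43, -0.18 and -0.09) were not called. Stat3 itself, the main transducer of gp130, was at 739 and 669 on SOCS3-null arrays and 491 and 552 on wildtype arrays on its brightest probe set, a difference of 0.42 (limma adjusted p = 0.0778).

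**Figure D4:**
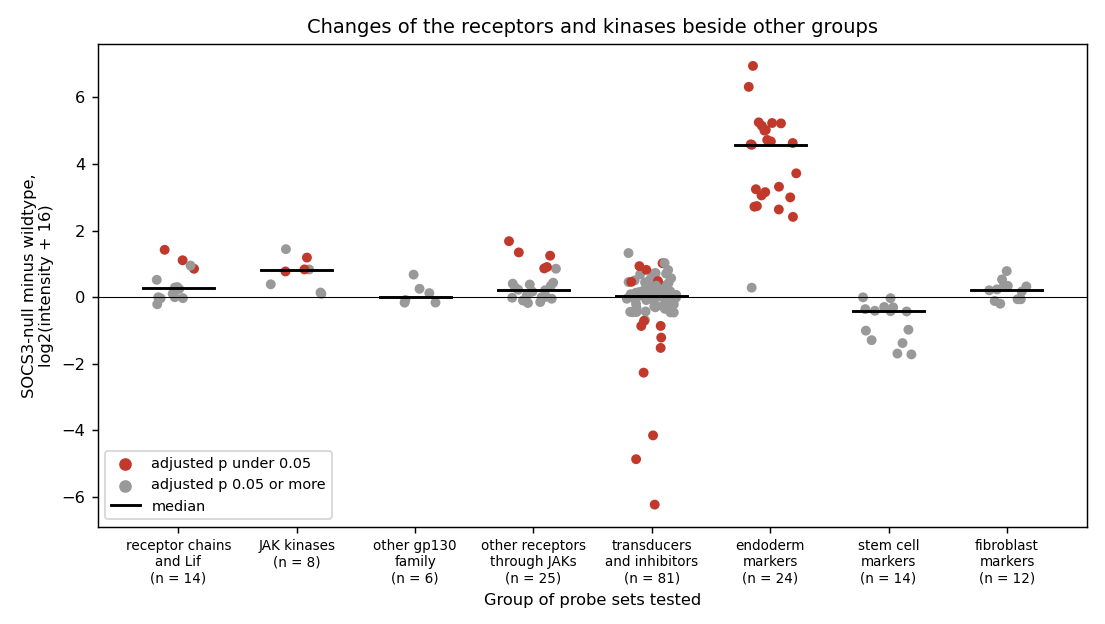
Log2 change (SOCS3-null minus wildtype) of each tested probe set of the receptor chains with Lif, of the JAK kinases, of the 3 pathway lists and of the endoderm, stem cell and fibroblast markers. Red marks an adjusted p under 0.05 and bars are medians. The JAK kinases have a median of 0.80, the receptor chains with Lif 0.27, and the endoderm markers 4.58.

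The probe set with the smallest p among the 22 was 1425107_a_at of Lifr. Likeness of profile was measured as the Euclidean distance between log2 values over the 4 arrays, each centred on its own mean. The 3 nearest genes were Fam189a2 (distance 0.0214), Mcfd2 (0.0217) and Atf3 (0.0633). Mcfd2, for example, was at 1173 and 1092 on SOCS3-null arrays and 406 and 412 on wildtype arrays.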

How the data were processed

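The deposited file holds 1 linear intensity for each of 45101 probe sets and 4 arrays. How the authors summarised and normalized them is not given in the labels or the file. Every value was positive and array medians differed by at most 0.012 on the log2(intensity + 16) scale, so no further normalization was applied. Of the probe sets, 8945 held the same value on at least 2 arrays, for a reason not known here. No detection calls were used. Precision is limited by the number of arrays.

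Tests used limma 3.58.1 in R 4.3.3 (lmFit, eBayes) on log2(intensity + 16) with genotype as the only term. Leaving aside 64 control probe sets, the 27022 probe sets at or above the 40th percentile of the mean were tested, with Benjamini-Hochberg adjustment over all of them and a two-sided threshold of 0.05. The procedure was also run on simulated data with known changes. Far fewer probe sets were changed there than were called here, and none held identical values. That run therefore does not measure the error rate of these calls. Symbols came from the platform annotation; all 10 were found in the RefSeq table of GRCm38.p6. Figures used matplotlib 3.10.9.

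The genes and lists were chosen with earlier results of these data known. Named genes were all 10, Socs3, from each pathway list the genes called or otherwise the 2 with the smallest p, defining cell type markers, and the 3 nearest profiles. Stat3 and the Cd68, Cdh5, Eomes and Tubb3 markers were named after their values were seen. Of the listed genes, 11 had no probe set of their own here. The deviations of same-numbered arrays from their group means correlated at -0.12, and the labels do not tie the numbers to a shared source. Alternatives were other pseudocounts, normalizations and filters, eBayes with a trend, the replicate number as a block, 1 probe set per gene, and leaving out each array.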

Additional observations from a re-analysis of the deposited data

How the results depend on the processing

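The 6 called probe sets of Lifr, Jak1 and Jak2 kept their direction under every alternative run. Of the 22 probe sets, 6 stayed the number called with pseudocounts of 1 and 64, quantile normalization, median centring and eBayes with a trend. The count was 4 without the filter, 7 with the filter at the 60th percentile and 4 with the replicate number as a block. With the pairing crossed, a fit added after the data were seen, it was 7, and 20 for the pathway lists. With 1 probe set per gene 3 were called. With 1 array left out the number was 0 to 0 for these probe sets and for the pathway lists, since fewer samples leave limma with 1 residual degree of freedom and the lone array is assumed to vary like those of the other group. The pathway lists had 19 probe sets called, but 9 without the filter and 11 with the replicate block. Among those not called, leaving out an array gave -0.00094 to 0.58 for Il6st 1437303_at, -0.34 to 0.34 for Osmr 1418675_at, -0.11 to 0.10 for Cntfr 1419429_at, -0.16 to 0.098 for Cntfr 1431663_a_at and -0.054 to 0.25 for Tyk2 1432576_at, so their direction is not settled. Osmr 1418675_at was also above 0 with a pseudocount of 1 (0.063), quantile normalization (0.0054) and median centring (0.0065), and Cntfr 1419429_at with median centring (0.0072). The cause of these changes was not tested.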
